A study of Mus musculus with 7 samples.

Results

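Mitochondrial ribosomal protein genes were followed in bone marrow of transplanted mice. The members were the genes whose symbol starts with Mrpl or Mrps and a digit, taken from probe sets that name exactly 1 gene. They numbered 75 of 8378 measured genes, on 119 of 16255 probe sets. RefSeq lists 78 protein-coding genes of that name, and the remaining 3, Mrpl30, Mrpl38 and Mrpl53, were not analysed here. A member's value was the mean over its probe sets, of which 48 members had 1 and 27 had several.

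Marrow was taken from recipients of bone marrow cells that carried a transgene, and was profiled on 7 Affymetrix arrays. Unsorted marrow gave 3 arrays with the mock control transgene and 2 arrays with the ABCG2 transgene, which encodes a drug efflux transporter. Marrow with EZH2-Mt, labelled as coming from an MDS-like recipient, was sorted on green fluorescent protein (GFP) into 1 GFP-negative and 1 GFP-positive array. EZH2 is a Polycomb enzyme that methylates histone H3, and MDS is taken as myelodysplastic syndrome. In the mock and ABCG2 arrays, cells with and without the transgene were not separated, and mock marrow is the only control. All animals had been transplanted, so that no array shows untreated marrow. The vector, strain, sex, age and time after transplantation are not given in the sources used here. No label numbers the animals, and the p-values measure only the spread between these arrays. The titles of both ABCG2 arrays hold the tag ser2, whose meaning is not given and which the other titles lack. They also begin with BMCs and hold Exp, where the mock titles begin with BMT. If these tags mark a batch, batch and transgene cannot be told apart.

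Mitochondria keep their own ribosome, which translates the few messenger RNAs of mitochondrial DNA into membrane subunits of the respiratory chain and ATP synthase. Its RNAs come from mitochondrial DNA, but every protein is encoded in the nucleus, made in the cytosol and imported. Some of these proteins have bacterial counterparts, while others were added in the mitochondrial lineage. The transcription factors Nrf1, Gabpa (an Ets family factor) and Yy1 are known regulators of nuclear genes for mitochondrial proteins, and Myc and the coactivators Ppargc1b and Pprc1 are known to promote mitochondrial biogenesis.

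Promoter windows are shown for 3 of the 5 members with the largest rise in ABCG2 marrow, chosen as examples of the Sp1, Ets and Yy1 letters near a start site. The other two of those members also hold searched letters, Mrpl3 the Ets and CCAAT letters and Mrpl11 the CCAAT letters. Each runs from 120 bases before the RefSeq start site to 30 bases from it on, in GRCm38.p6, plus strand, 5′ to 3′. Capitals mark matches of GGGCGG (Sp1), CCGGAAG (Ets and Gabpa) or AAGATGGCG (Yy1) on either strand. The windows are chr16:92058216-92058365 for Mrps6, chr17:46110884-46111033 for Mrps18a and chr13:99344666-99344815 for Mrps27.
Mrps6: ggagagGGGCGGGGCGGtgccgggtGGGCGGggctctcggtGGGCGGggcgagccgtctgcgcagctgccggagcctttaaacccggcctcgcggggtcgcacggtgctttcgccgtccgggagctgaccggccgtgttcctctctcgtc
Mrps18a: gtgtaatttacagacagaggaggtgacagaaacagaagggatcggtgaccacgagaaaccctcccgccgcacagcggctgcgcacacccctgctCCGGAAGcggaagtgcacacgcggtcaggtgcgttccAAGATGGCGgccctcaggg
Mrps27: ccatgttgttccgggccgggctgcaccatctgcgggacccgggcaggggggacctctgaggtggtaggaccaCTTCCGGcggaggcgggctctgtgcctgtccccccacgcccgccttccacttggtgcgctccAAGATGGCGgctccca

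RefSeq windows of 300 bases, 250 before the start site and 50 after, were found for 67 of the 75 members (73 windows in all, since a few genes have several). The Ets and Gabpa letters CCGGAAG were in 34.2% of member windows, in 20.3% of windows of measured genes and in 8.86% of all 32851 windows. The Yy1 letters AAGATGGCG were in 8 of 73 member windows, 3.51% of those of measured genes and 1.4% of all. The Nrf1 letters GCATGCGC were likewise in 8 of 73, and in 5.85% and 2.71% of the other sets. The Sp1 letters GGGCGG stood in 53.4% of member windows against 63.6% of those of measured genes, the CCAAT letters (NF-Y) in 39.7% against 38.1%, and the E-box CACGTG in 9.59% against 10.5%. Matches of different motifs overlapped in 2 member windows. Among members that rose in ABCG2 marrow, described next, 12 of 45 windows held the Ets letters and 2 held the Nrf1 letters. Among the members that did not pass the test 13 of 28 and 6 of 28 did. Counted by window, the other letters went the other way, with Yy1 in 6 of 45 and 2 of 28 and the E-box in 6 and 1. The CCAAT letters were in 19 and 10 and the Sp1 letters in 25 and 14. The 45 windows belong to 39 genes and the 28 windows to 28 genes, so only members that rose count more than once. Several largely overlapping windows of Mrpl2 each hold the E-box, CCAAT and Sp1 letters, and several windows of Mrpl48 hold the Sp1 letters. Shares by gene were not worked out, so the window counts do not show a difference between genes. A match describes letters in a window and is not a binding site.

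In ABCG2 marrow the family was shifted upwards. Of the 75 members, 46 were higher in ABCG2 than in mock marrow at an adjusted p under 0.05 (limma, Benjamini-Hochberg over all 8378 genes), 0 were lower and 29 did not pass. This is 61.3% of the members, beside 35.6% of all measured genes that were higher and 26.2% that were lower. Without adjustment, at a limma p under 0.05, 49 members were higher and 0 lower. The same shares over all genes were not worked out, so these counts have no background beside them. The median difference over the members was 0.53 on the log2 scale (lower and upper quartiles 0.21 and 0.90), and it was 0.15 over all genes. Of the 29 that did not pass, 17 had positive and 12 negative differences. All deposited values are log values centred per probe set on the median of the 7 arrays, so they show differences between arrays and no level of a gene, and levels of different genes cannot be set against each other.

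The count depends on the normalization between arrays. Quantile normalization was applied to the centred values and gives every array nearly the same spread of them. Before it, the standard deviation over all genes was 0.39, 0.30 and 0.32 in mock 1 to 3. In ABCG2 1 and 2 it was 1.12 and 1.21. This step therefore narrows the ABCG2 values and widens the mock values. After quantile normalization 13 members were higher and 0 lower, all 13 of them among the 46. They made up 17.3% of the members, close to the 17.0% of all genes that were then higher, and 17.3% of all genes were lower. The median over members was then 0.32 and that over all genes 0.07. Shifting each array to a median of 0 over all genes left 43 members higher (57.3%, beside 32.7% of all genes) and a member median of 0.46.

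The rise was modest in most members. A difference of 2-fold or more, with the test passed, was seen in 16 members (21.3%), beside 16.5% of all genes upwards and 14.3% downwards. The called differences ran from 0.40 for Mrpl46 to 2.57 for Mrps6, with standard errors of 0.12 to 0.27 over all members. Both ABCG2 arrays lay above all 3 mock arrays in 54 members (72.0%), which held for 44.2% of all genes. Both lay below all mock arrays in 1 member, Mrps14, and in 32.7% of all genes.

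**Figure D1:**
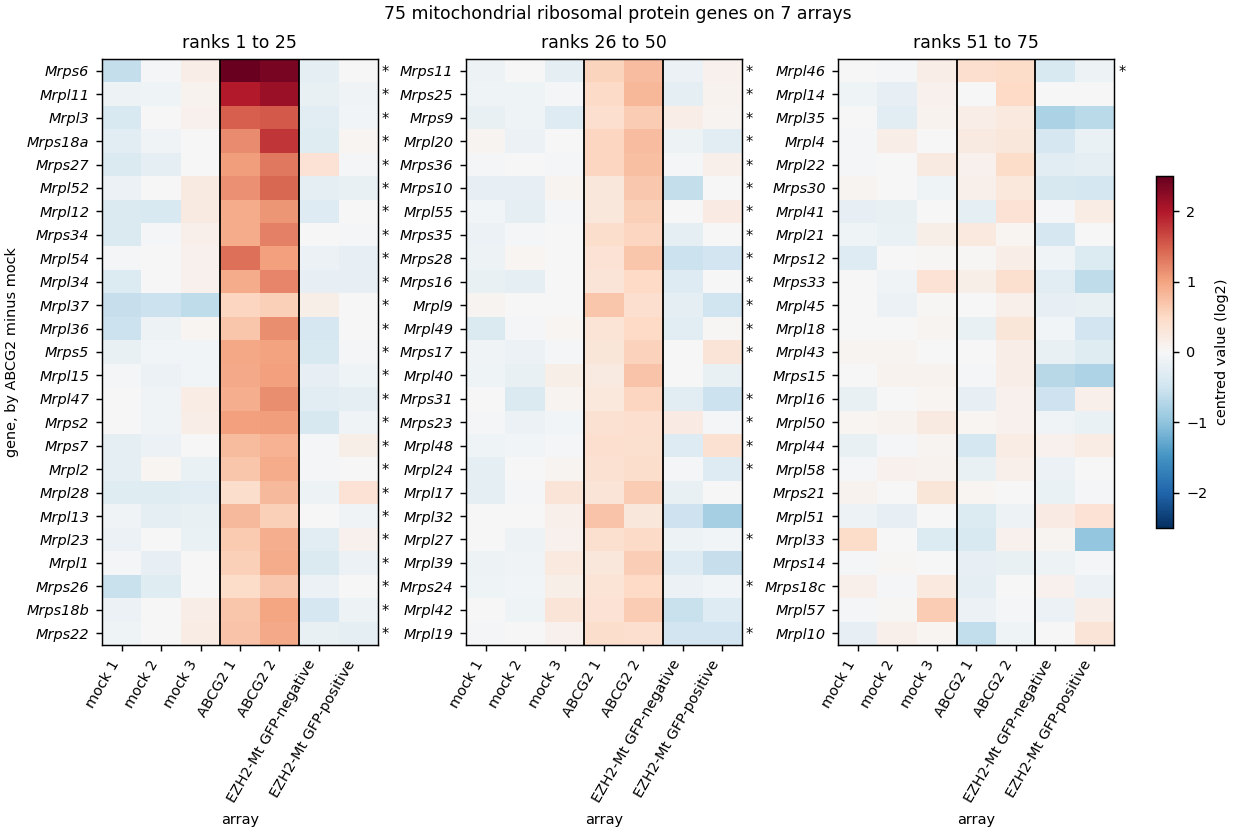
Centred log2 values of the 75 members (rows, ordered by ABCG2 minus mock) on each of the 7 arrays (columns); red is above and blue below the gene's median over the arrays, and the colour scale ends at 2.5 on either side. Asterisks mark the 46 members higher in ABCG2 than in mock at an adjusted p under 0.05; the ABCG2 columns are red in the first panels and pale among the last 25 genes.

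Mrps6, a small subunit protein with a bacterial counterpart, had the largest difference. Its values were -0.60, -0.03 and 0.17 in mock 1 to 3 and 2.47 and 2.37 in ABCG2 1 and 2. The ABCG2 values stood far above every mock array, by 2.57 ± 0.24 (limma standard error; 3 against 2 arrays), or 5.94-fold, at an adjusted p of 0.000207. In the RefSeq models Mrps6 overlaps Slc5a3, the sodium and myo-inositol cotransporter gene, whose own probe sets differed by 1.87 (adjusted p 0.000675). Whether transcripts of Slc5a3 contribute to the Mrps6 signal was not tested.

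Mrpl11, the large subunit protein at the base of the stalk that meets translation factors, followed. It read -0.13, -0.10 and 0.08 in mock marrow and 1.98 and 2.17 in ABCG2 marrow. The groups were widely separated, with a difference of 2.12 ± 0.14 (4.36-fold, limma adjusted p 6.09e-05), and its 3 probe sets each rose, by 1.61 to 2.94. Mrpl3, a large subunit protein with a bacterial counterpart, read -0.37, 0.00 and 0.11 in mock and 1.5 and 1.53 in ABCG2 arrays. The difference was 1.60 ± 0.18, with no overlap.

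Mrps18a shares its name with small subunit proteins but sits in the large subunit of the mitochondrial ribosome. Its values were -0.26, -0.08 and 0.00 in mock and 1.18 and 1.79 in ABCG2 marrow. ABCG2 2 was the higher of the pair, and the difference was 1.60 ± 0.21 (limma adjusted p 0.000860). Mrps27, a small subunit protein of the pentatricopeptide repeat family, read -0.37, -0.23 and 0.00 in mock and 1.05 and 1.31 in ABCG2 arrays. It differed by 1.39 ± 0.17 between groups that did not overlap. Under quantile normalization these 5 members still passed, with smaller differences of 1.65 for Mrps6, 1.31 for Mrpl11, 0.95 for Mrpl3, 1.03 for Mrps18a and 0.99 for Mrps27.

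The next 5 members had differences close to each other. Mrpl52, a large subunit protein without a bacterial counterpart, rose by 1.27 ± 0.17. Mrpl12, the stalk protein with a bacterial counterpart that is also reported to bind mitochondrial RNA polymerase, rose by 1.18 ± 0.22, from -0.37, -0.37 and 0.23 in mock to 0.92 and 1.10 in ABCG2 arrays. Mock 3 stood apart from the other mock arrays in Mrpl12 but below both ABCG2 arrays. Mrps34 of the small subunit rose by 1.18 ± 0.19, Mrpl54 of the large subunit by 1.18 ± 0.15 and Mrpl34 of the large subunit by 1.15 ± 0.18. Under quantile normalization these 5 kept their direction but did not pass, with limma adjusted p from 0.0512 for Mrpl54 to 0.136 for Mrpl12.

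Mrpl37 was picked out after its values were seen. All 3 mock arrays were low, at -0.58, -0.54 and -0.64, both ABCG2 arrays were high, at 0.54 and 0.59, and the EZH2-Mt fractions lay between, at 0.15 (GFP-negative) and 0.00 (GFP-positive). Its ABCG2 minus mock difference was 1.15 ± 0.12. The mock values lay below every other array, which also held for other members, among them Mrpl28 and Mrps9.

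Members known for roles or positions beyond the family name had smaller differences, apart from Mrpl12 and Mrps18a above. Mrps36, named as a small subunit protein but now placed in the oxoglutarate dehydrogenase complex, read -0.03, 0.00 and -0.02 in mock and 0.53 and 0.75 in ABCG2 marrow, a rise of 0.66 ± 0.13 (limma adjusted p 0.00521) that did not pass under quantile normalization (0.34, adjusted p 0.136). Mrpl58, a peptidyl-tRNA hydrolase built into the large subunit, differed by -0.10 (95% interval -0.45 to 0.26) and did not pass. Mrps30, which despite its name lies in the large subunit, differed by 0.21 (-0.11 to 0.53) and did not pass. Mrpl41 of the large subunit differed by 0.20 (-0.28 to 0.68). Its 2 ABCG2 arrays disagreed, at -0.22 and 0.37, so that without ABCG2 1 it was higher by 0.49 (limma adjusted p 0.0487), while without ABCG2 2 the difference was -0.09.

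The lowest differences came from Mrpl10, at -0.35 (95% interval -0.82 to 0.12), Mrpl57, at -0.29, Mrps18c, at -0.22, Mrps14, at -0.19, and Mrpl33, at -0.18. Mrpl10 holds Mrpl12 in the stalk. Its values were -0.21, 0.13 and 0.05 in mock and -0.61 and -0.11 in ABCG2 arrays, which overlapped, and it did not pass. The smallest adjusted p among the members that did not pass was 0.0514, for Mrpl32.

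**Figure D2:**
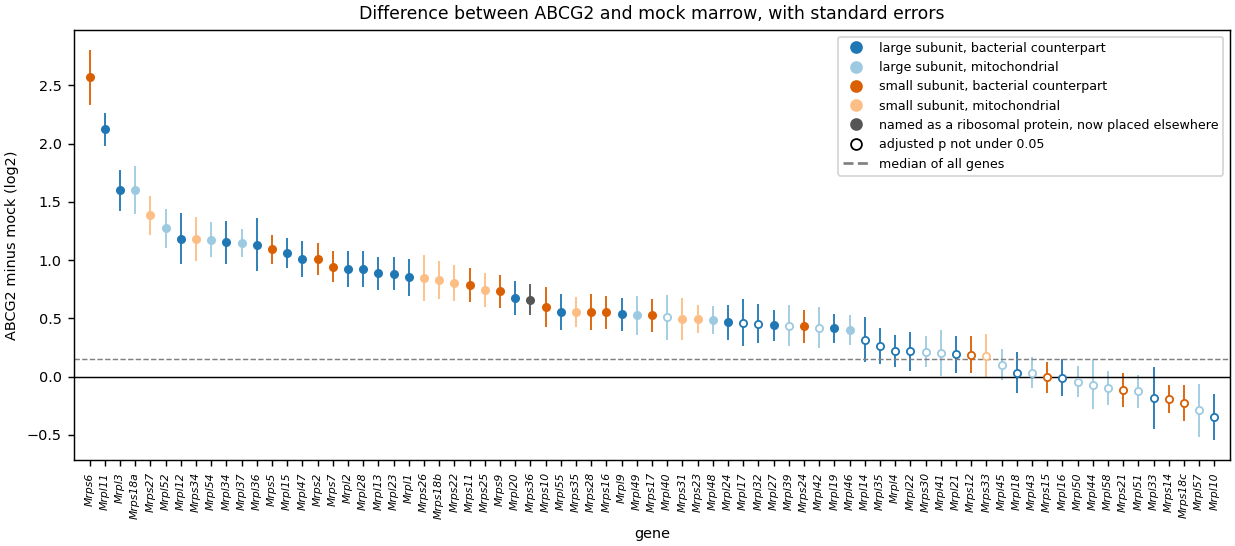
ABCG2 mean minus mock mean (log2, vertical axis) for each of the 75 members (horizontal axis), with limma's standard error as bars (2 ABCG2 and 3 mock arrays); colours give the subunit and origin, filled points have an adjusted p under 0.05, and the dashed line is the median of all genes, 0.15. The points run from 2.57 for Mrps6 to -0.35 for Mrpl10, and no point below 0 is filled.

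By place in the ribosome, 25 of 48 large subunit members rose (median difference 0.46) and 20 of 26 small subunit members did (median 0.58). Within the large subunit, 18 of the 29 with a bacterial counterpart rose (median 0.53) and 7 of the 19 without one (median 0.40). Within the small subunit, 11 of the 16 with a bacterial counterpart rose (median 0.55) and 9 of the 10 without one (median 0.77), the exception being Mrps33 at 0.18. Set against the 35.6% of all genes that were higher, the large subunit members without a bacterial counterpart, at 36.8%, were at the background. Without mock 2 the small subunit members with a bacterial counterpart that rose were 7 of 16 in place of 11, beside 29.4% of all genes. Without ABCG2 2 the median difference of these members was 0.40 in place of 0.55. Under quantile normalization 8 large and 5 small subunit members rose, and of the small subunit members without a bacterial counterpart 1 of 10 did, Mrps27, beside 17.0% of all genes. None fell in any class in the fit of all arrays, and the differences between classes were not tested.

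Probe sets of a gene did not always move together. Fitted singly, 68 of the 119 probe sets were higher and 2 were lower, both calls from limma. The same shares over all probe sets are not given here. Counted by gene, where any passing probe set was enough, 62.7% of the members were higher in this fit. Of all genes 39.3% were higher and 29.3% lower. The lower ones belonged to Mrpl50, at -0.46 beside 0.37 for its other probe set, and to Mrps14, at -0.58. Probe sets of opposite sign occurred in 7 of the 27 members with several, namely Mrpl50, Mrps14, Mrpl21, Mrps21, Mrpl51, Mrpl44 and Mrps15. The same share over the 3624 genes with several probe sets was not worked out. In RefSeq, 24 members overlap another gene model, 19 of them a protein-coding one. Their signal may hold transcripts of the neighbour, which was not tested. Neighbours did not always move alike: Mrpl43 differed by 0.04 and the overlapping mitochondrial helicase gene Twnk by 1.37, while Mrpl48 rose by 0.49 and the overlapping Rab6a was at -1.87.

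The arrays of a group were not equal. The member medians were -0.11, -0.06 and 0.06 in mock 1 to 3, 0.39 in ABCG2 1 and 0.57 in ABCG2 2. ABCG2 2 was above ABCG2 1 in 66 members (88.0%; 58.8% of all genes), and mock 3 was the highest mock array in 56 members (74.7%; 32.8% of all genes). Mock 1 was the lowest mock array in 41 members (54.7%; 38.4% of all genes). Within the mock group and within the ABCG2 group, 0 members were 2-fold apart between any arrays. Such differences were few among all 8378 genes too. From mock 1 to mock 2, 113 genes were up and 22 down by 2-fold. From mock 1 to mock 3 it was 112 and 43, and from mock 2 to mock 3 it was 8 and 22. From ABCG2 1 to ABCG2 2 it was 133 and 231.

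The lists of other genes of mitochondrial translation had more higher than lower calls, in counts that depended on the normalization. Their shares are to be read beside the 35.6% of all genes that were higher, or 17.0% under quantile normalization. Of 15 translation factors named, 11 were measured, and 9 were higher and 0 lower in ABCG2 marrow, with a median of 0.73, and 5 were higher under quantile normalization. Mtfmt, which formylates the initiator methionyl-tRNA, rose by 1.53 ± 0.17, Guf1, a ribosome-bound GTPase, by 1.32 ± 0.19, and Oxa1l, the insertase that receives the new chains at the inner membrane, by 1.06 ± 0.13. Of 12 measured mitochondrial tRNA synthetases, which charge tRNAs for this ribosome, 10 were higher and 0 lower (median 0.85), and 4 were higher under quantile normalization. Iars2 led with 2.06 ± 0.14, followed by Tars2 at 1.58 ± 0.16 and Nars2 at 1.52 ± 0.27, which did not pass under quantile normalization (limma adjusted p 0.0516).

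Of 4 measured mitoribosomal proteins outside the name pattern, 2 rose, Gadd45gip1 by 1.42 ± 0.18 and Ptcd3 by 0.86 ± 0.19. Neither passed under quantile normalization, at 0.64 and 0.36 (limma adjusted p 0.132 and 0.376). Chchd1, at 0.44, and Dap3, at 0.19, did not pass. Assembly factors, which fold and modify the ribosomal RNAs and load the proteins, were higher in 14 and lower in 2 of 23 measured genes (median 0.73), and higher in 5 under quantile normalization. The ribosomal RNA methyltransferase Mrm1 rose by 1.94 ± 0.18, the RNA helicase Dhx30 by 1.85 ± 0.16 and Rcc1l by 1.55 ± 0.15. The small subunit assembly factor Rbfa fell by 1.05 on the log2 scale, with 0.00, -0.01 and 0.00 in mock against -1.20 and -0.91 in ABCG2 arrays, and the helicase Ddx28 fell by 0.67. Both still passed under quantile normalization, at -0.62 and -1.11.

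Genes for transcription and upkeep of mitochondrial DNA and its RNAs were higher in 15 and lower in 1 of 22 (median 0.75), and higher in 8 under quantile normalization. Prorp, the nuclease that cuts the 5′ ends of mitochondrial tRNAs, rose by 2.30 ± 0.17, Fastkd1 by 1.67 ± 0.23 and Fastkd3 by 1.64 ± 0.18. The mitochondrial RNA polymerase Polrmt rose by 1.44 ± 0.19 and the DNA-packaging factor Tfam by 1.11 ± 0.12. Under quantile normalization Prorp, Polrmt and Tfam still passed, at 1.31, 0.94 and 0.65. Polg, the mitochondrial DNA polymerase, fell by 0.62, which did not pass under quantile normalization (limma adjusted p 0.127).

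Among 9 measured nuclear regulators, 5 were higher and 0 lower (median 0.40). Myc rose by 2.42 ± 0.65 (limma adjusted p 0.0173), with widely spread values of -1.34, -0.23 and 0.23 in mock and 0.99 and 2.96 in ABCG2 arrays. Both ABCG2 arrays were above every mock array, but they were further apart than the closest ABCG2 and mock arrays. Ppargc1b rose by 1.33 ± 0.16 and Pprc1 by 1.24 ± 0.22. Transcripts of Nrf1 (-0.10), Gabpa (-0.14) and Yy1 (0.02), whose letters were searched in the promoters, did not pass. The count of 5 fell to 3 without mock 2 or mock 3 and to 2 without ABCG2 2. Under quantile normalization 2 regulators were higher, and Myc did not pass either there (limma adjusted p 0.0956) or without ABCG2 2 (0.0748).

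The cytosolic ribosome and the respiratory chain did not show the same counts. Cytosolic ribosomal protein genes were higher in 12 and lower in 1 of 45 (26.7% and 2.22%, median 0.14), with Rpl14 at 1.93 ± 0.18, Rpl12 at 1.79 ± 0.30 and Rps27 at 1.71 ± 0.14 as the largest rises and Rpl39 at -1.38 ± 0.28 as the only fall. Many have near-identical pseudogenes, so the source of their signal is uncertain. Nuclear genes for subunits of oxidative phosphorylation were higher in 22 and lower in 5 of 72 (30.6% and 6.94%, median 0.17). Cox7c, Ndufs3 and Atp5g2 rose by 1.19, 1.08 and 1.03, and Ndufv3, Ndufa4 and Ndufb6 were the largest falls, at -0.74, -0.66 and -0.50. Ndufv3 and Ndufa4 did not pass under quantile normalization, nor Ndufa4 without ABCG2 1, and under it 7 cytosolic ribosomal protein genes and 3 of these subunits were higher. Without mock 2 the latter were higher in 13 and lower in 3, without ABCG2 2 higher in 12, without mock 3 lower in 3 and without ABCG2 1 lower in 2, and with arrays shifted to a common median 10 were lower. Without quantile normalization both shares of higher genes are under the 35.6% over all genes. Under it 17.0% of all genes and 17.3% of the mitochondrial ribosomal proteins were higher. The 7 of 45 cytosolic ribosomal protein genes were then close to both shares, and the 3 of 72 subunits were under them. The difference from the mitochondrial ribosomal proteins was not tested in either setting.

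**Figure D3:**
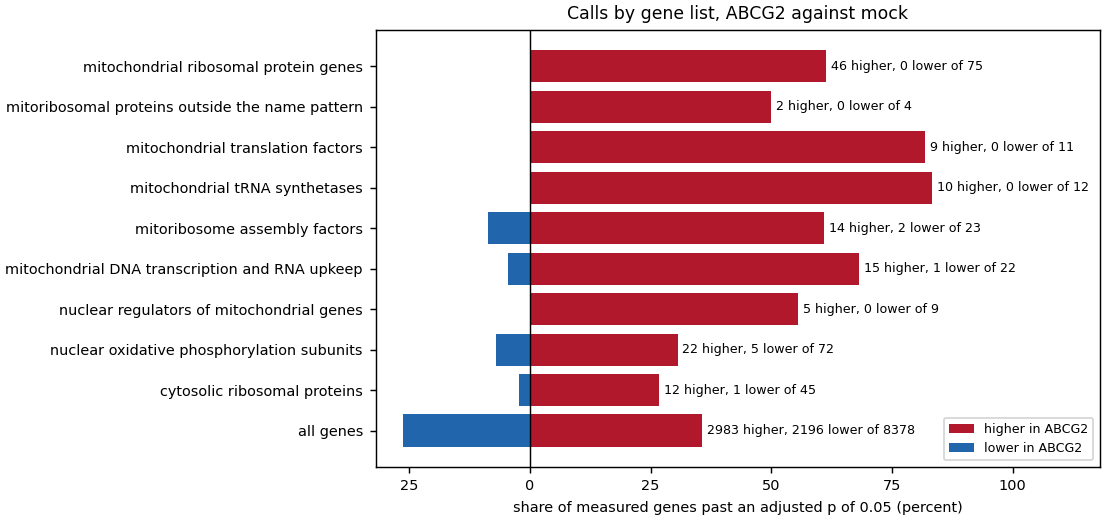
Share of the measured genes of each list (horizontal axis, percent) that were higher (red, right) or lower (blue, left) in ABCG2 than in mock marrow at an adjusted p under 0.05, with counts beside the bars. The mitochondrial ribosomal protein bar reaches 61.3%, those of the cytosolic ribosomal proteins and oxidative phosphorylation subunits 26.7% and 30.6%, and that of all genes 35.6%.

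Cell type markers moved with the same comparison. Measured were 12 of 15 neutrophil, 8 of 10 monocyte and macrophage, 5 of 8 megakaryocyte and platelet and 5 of 11 B lineage markers named. For T and NK markers it was 4 of 10 and for erythroid markers 4 of 13. Only probe sets detected on all arrays were deposited, so a marker undetected in 1 group would be missing. All 12 measured neutrophil markers were lower in ABCG2 marrow (median -5.16), as were all 8 monocyte and macrophage markers (median -3.79) and all 5 megakaryocyte and platelet markers (median -1.29). The median of the neutrophil markers was -0.30 to 0.01 in the mock arrays and -4.11 and -6.08 in the ABCG2 arrays, and that of the monocyte and macrophage markers 1.01 to 1.16 and then -3.16 and -2.10. Of 5 B lineage markers, 3 were higher, Cd79b by 3.79, Cd22 by 3.12 and Pou2af1 by 4.28, and 0 were lower. Their median was -1.41 to -0.04 in the mock arrays and 0.76 and 1.81 in the ABCG2 arrays. T and NK markers were higher in 2 and lower in 1 of 4, and erythroid markers higher in 1 and lower in 1 of 4. Since the values are centred, whether a marker is at background cannot be read from them. The part of these markers in the differences of the ribosomal protein genes was not tested, and in whole marrow fewer cells of a type and less RNA per cell cannot be told apart.

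Between the sorted EZH2-Mt fractions the family differed little. With 1 array a fraction there is no replicate check and no test. The median of GFP-positive minus GFP-negative was 0.11 over the members and 0.01 over all genes. It was positive in 50 members and negative in 25, beside 4276 and 4102 of all genes. A difference of 2-fold or more was seen upwards in 0 members (1.77% of all genes) and downwards in 1, Mrpl33 (1.34% of all genes). Mrpl33, a large subunit protein with a bacterial counterpart, read 0.07 in the GFP-negative and -0.97 in the GFP-positive array, a difference of -1.04. Its mock values of 0.46, 0.00 and -0.33 were themselves widely spread, and the GFP-positive array lay below all of them. At 1.5-fold, Mrpl48 (0.70), Mrpl16 (0.64) and Mrps10 (0.59) were higher in the GFP-positive array, which 7.88% of all genes were, and Mrpl33 was the only member lower (6.65% of all genes).

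Set beside the mock mean, the GFP-negative array had a member median of -0.17 and the GFP-positive array of -0.03, with 0.04 and 0.06 over all genes. Under quantile normalization the GFP-negative median was -0.33, and without mock 3 the GFP-positive median was 0.02. These differences share the mock arrays with each other and with the ABCG2 comparison. The GFP-negative array was below all 3 mock arrays in 43 members (57.3%; 30.7% of all genes) and above them in 10 (13.3%; 38.9%). The GFP-positive array was below them in 29 (38.7%; 33.6%) and above in 20 (26.7%; 42.5%). Both fractions were below all mock arrays in 23 members (20.6% of all genes) and above in 8 (27.4%). Mrps15 and Mrpl35, picked out after their values were seen, were low in both fractions, Mrps15 at -0.69 and -0.78 and Mrpl35 at -0.79 and -0.67 in the GFP-negative and GFP-positive arrays. The mock arrays of Mrps15 ran from 0.00 to 0.10 and those of Mrpl35 from -0.28 to 0.09. The fractions were sorted and the mock marrow was not, so transgene and sorting cannot be told apart here.

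The ABCG2 arrays also lay above the EZH2-Mt fractions for most members. Both ABCG2 arrays exceeded both EZH2-Mt fractions in 62 members (82.7%; 40.4% of all genes). The member medians of the fractions were -0.19 (GFP-negative) and -0.06 (GFP-positive). Marker lists differed between the fractions as well. In the GFP-negative and GFP-positive arrays the median was 0.32 and 1.17 for neutrophil markers, 0.43 and 1.63 for erythroid markers and 0.00 and 1.01 for B lineage markers. It was 1.25 and 0.03 for T and NK markers, -0.20 and 0.00 for monocyte and macrophage markers and 0.00 and -0.26 for megakaryocyte and platelet markers. In the mock arrays the monocyte and macrophage median was 1.01 to 1.16, the erythroid median -0.71 to 0.52 and the T and NK median -1.95 to -0.12. Their part in the values of the ribosomal protein genes was not tested.

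**Figure D4:**
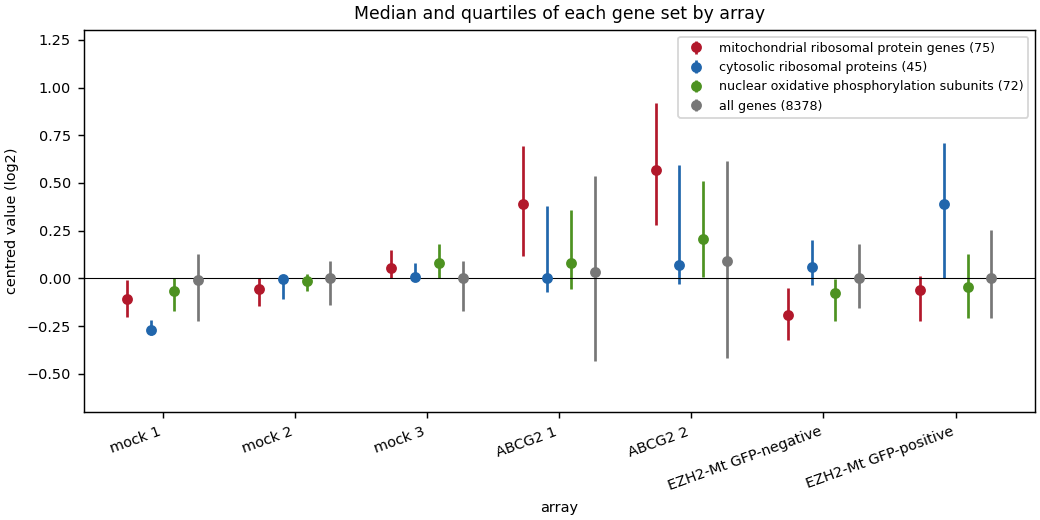
Median (points) and lower and upper quartiles (bars) of the centred log2 values over the genes of each set, on each of the 7 arrays. The mitochondrial ribosomal protein median (red) is 0.39 and 0.57 in the ABCG2 arrays and between -0.19 and 0.06 in the others, while the cytosolic ribosomal protein median (blue) is 0.00 and 0.07 in ABCG2 and highest, at 0.39, in the GFP-positive array.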

How the data were processed

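RNA of 7 marrow samples was measured on Affymetrix Mouse430_2 arrays. Per the file headers, the authors deposited normalized log values of probe sets that had raw signals of 3 to 120534 and were called Present or Marginal on 100% of arrays, so a gene undetected on any array is not analysed here. The software, per the submitters' processing notes, was MAS5 (version not given). Each deposited probe set had a median of 0 over the arrays. The log base was not stated and was taken as log2: the largest deposited range, 8.70, exceeds the 4.60 that base 10 allows, and natural logs would allow 10.6. For arrays, their number limits the precision.

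Of 16309 probe sets, 54 controls were set apart; 14229 of the rest had 1 gene symbol, 483 several and 1543 none. A gene's value was the mean over its probe sets (8378 genes). All 75 member gene IDs matched RefSeq (GRCm38.p6). ABCG2 was compared with mock on all genes by a two-sided limma test without covariates (lmFit, eBayes; limma 3.58.1, R 4.3.3), adjusted by Benjamini-Hochberg and called under 0.05; the script was tested on simulated data. Sorted fractions were described only.

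The members, lists, tests and motifs were chosen with earlier results of these data known. Named members are the 10 largest called differences each way, those 2-fold apart between the fractions, and Mrpl12, Mrpl41, Mrps36, Mrpl58, Mrps30 and Mrps18a; each pathway list names its 3 largest called differences each way, with Nrf1, Gabpa, Yy1, Myc, Pprc1, Tfam and Polrmt. Alternatives covered normalization, scaling, probe set choice, variance model, a replicate block, fits per probe set and leaving out each array.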

Additional observations from a re-analysis of the deposited data

How the results depend on the processing

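Quantile normalization, which gives the centred values nearly the same spread on every array, moved the counts most. With it 13 members were higher, the member median was 0.32, and 39 genes of the pathway lists passed in place of 98. The GFP-negative minus mock median was -0.33, and the part of the equal spread in these changes was not tested. Under quantile normalization 6 of the named members no longer passed: Mrpl52, Mrpl12, Mrps34, Mrpl54, Mrpl34 and Mrps36. Fitted per probe set, 47 members were higher and 2 lower (39.3% and 29.3% of all genes), because each probe set was then counted alone. Leaving out 1 array at a time gave 33 to 48 members higher, 0 to 1 lower (Mrpl10, without ABCG2 2), member medians of 0.44 to 0.61 and 74 to 89 calls in the pathway lists; an arm left with 1 array is assumed to vary like the other. Without mock 1, 2 and 3 in turn, 49.3%, 44.0% and 64.0% of the members were higher, beside 31.7%, 29.4% and 30.9% of all genes. The GFP-positive minus mock median ran from -0.08 to 0.02 when 1 mock array was left out. At 1.5-fold in place of 2-fold, 4 members differed between the fractions. Whether the replicate numbers pair the samples is not known. Correlations of deviations from the group mean were 0.07 for mock 1 with ABCG2 1 and -0.06 for mock 2 with ABCG2 2. The deviations of 2 ABCG2 arrays mirror each other, so these values cannot decide on pairing. A replicate block gave 41 members higher (54.7%, beside 30.7% of all genes), a median of 0.58 and 85 list calls. The member counts and medians under shifted scaling, median over probe sets, fewer probe sets, array weights and robust variance stayed within 1.5 times or the spread between mock arrays. Of 195 alternative values of named members, 184 kept direction and call, 6 lost the call, 1 gained it (Mrpl41), 4 small ones moved and 0 reversed a call. The number of arrays, 2 and 3, limits all tests, and the centred values carry no signal over background.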
